A study of Saccharomyces cerevisiae with 35 samples.

Results

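Cells of Saccharomyces cerevisiae moved into 0.7 M NaCl changed the expression of many genes within 30 min. In 3 wild strains, a set of 107 genes, of 6717 in the count table, had risen little or not at all by 30 min. After 3 h it stood well above its unstressed level. These late-induced genes were chosen by a rule on the wild strains alone. Counts were scaled by the column total to CPM, the level of a gene relative to all counts of its library, 1 was added, and the log2 values were averaged over replicates. A member had, in each of BC187, NCYC3290 and YPS128, a mean at 3 h at least 1.5 above the unstressed mean on this log2 scale, a mean at 30 min no more than 0.5 above it, and a mean of at least 10 CPM at 3 h. Because those values chose the genes, the wild-strain courses are given below as a description with no test, and the laboratory strain BY4743, which the rule did not use, carries every test.

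The data are 35 RNA-seq libraries from 4 diploid strains. BC187 (a vineyard strain), NCYC3290 (a West African strain), YPS128 (a North American oak isolate) and BY4743 (MATa/α, his3Δ1/his3Δ1, leu2Δ0/leu2Δ0, LYS2/lys2Δ0, met15Δ0/MET15, ura3Δ0/ura3Δ0) were grown in rich YPD medium at 30 °C and then shifted to YPD with 0.7 M NaCl. Each culture was sampled before the shift (T0), after 30 min (T30) and after 3 h (T3h), with 3 replicates per strain and time except YPS128 at T30, which had 2. Each strain is 1 isolate of its lineage, so strain and lineage cannot be told apart. Reads of all strains were mapped to the S288c genome. Sequence or copy number differences from it can change the counts of a gene. Differences in level between strains given below were not checked for this. BY4743 carries the auxotrophic deletions at every time point, and its single LYS2 copy matters here because LYS2 is a member. Library totals ran between 3629637 and 5866906 counts, so 3 counts were worth 0.511 to 0.827 CPM. As a check of the genotype, LEU2 and URA3 had at least 34.7 CPM in all 26 wild-strain libraries and 0 counts in all 9 BY4743 libraries, while HIS3, counted at 24.1 to 146 CPM in the wild strains, had 23.8 to 110.1 CPM in BY4743.

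Yeast answers salt with a fast programme, in which the Hog1 kinase and the general stress factors Msn2 and Msn4 switch on defence genes within minutes, mostly transiently. Genes for making amino acids follow another system: the activator Gcn4, whose synthesis is controlled at translation when charged tRNA or nitrogen runs short, binds TGACTC sites upstream of many biosynthetic genes. Autophagy, which encloses cytoplasm in vesicles and delivers it to the vacuole for breakdown, is turned on when nutrients fall or the TOR kinase is inhibited. The late-induced genes held members of all of these systems.

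Promoter sites of the amino acid synthesis genes are shown first because most of these members share a motif and most had no call of higher expression at T30 in BY4743. TGACTC, searched on both strands in the 400 bases before the start codon, was present in 32 of the 106 members with a window (30.2%) and in 10.6% of all 5743 promoters. It was present in 11 of the 14 amino acid synthesis members described here (78.6%). The other 3, ARO3, MET10 and AGX1, had no match in this window. The sites below are read in the gene's own direction from the R64 genome, 60 bases each, with TGACTC in capitals. They lie at chrX:268458-268517 (+) for ARG3, chrXIII:396499-396558 (-) for ARG7, chrV:295160-295219 (+) for ARG5,6, chrXV:571006-571065 (-) for ORT1, chrXV:882577-882636 (+) for CPA1, chrIX:142699-142758 (+) for HIS5 and chrII:474088-474147 (-) for LYS2.
ARG3: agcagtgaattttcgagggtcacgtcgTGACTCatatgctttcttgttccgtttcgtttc
ARG7: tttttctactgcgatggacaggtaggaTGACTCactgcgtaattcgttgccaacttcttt
ARG5,6: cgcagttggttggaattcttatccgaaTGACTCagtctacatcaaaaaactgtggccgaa
ORT1: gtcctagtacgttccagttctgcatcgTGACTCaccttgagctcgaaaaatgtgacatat
CPA1: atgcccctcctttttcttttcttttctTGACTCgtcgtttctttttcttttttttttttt
HIS5: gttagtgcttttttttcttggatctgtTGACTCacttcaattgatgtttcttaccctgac
LYS2: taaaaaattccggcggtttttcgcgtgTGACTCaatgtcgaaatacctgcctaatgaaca
The first base of the capitals lies 314 bases before the start codon of ARG3, 152 before that of ARG7, 223 before that of ARG5,6 and 295 before that of CPA1. The last of these sites is counted for 2 members, since it is also 161 bases before the small reading frame YOR302W. HIS5, with 3 matches, shared with the vitamin gene SNZ1 the highest number in 1 window, and ARG5,6 had a second match.

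Of the 16 factor motifs searched, TGACTC had the widest gap between members and all promoters. The stress response element AGGGG, bound by Msn2 and Msn4, was present in 42.5% of members and 29.2% of all promoters, and GNGGGG, the core of the site of the glucose repressor Mig1, in 34.9% of members and 18.6% of all. The second contains many copies of the first, so these 2 shares are not separate. The Crz1 motif GNGGCTG was in 15.1% of members and 7.37% of all, and GGCGGC, the URS1 element of meiotic genes, in 12.3% and 7.28%. GATGAG, the PAC element of ribosome biogenesis genes, was less frequent among members (13.2%) than among all promoters (23.2%). 11 members held both TGACTC and AGGGG. A second set of sequences shows the stress element in ATH1 and YNL092W, a pair of genes that rose early in BY4743, in the gene's direction with the match in capitals (CCCCT is AGGGG read on the other strand). They lie at chrXVI:615048-615106 (+) and chrXIV:450680-450738 (+).
ATH1: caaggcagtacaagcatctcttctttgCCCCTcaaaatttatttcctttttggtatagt
YNL092W: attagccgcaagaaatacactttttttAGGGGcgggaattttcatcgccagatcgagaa
A match describes the letters and is not evidence that the factor was bound. SDC25 had no window.

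**Figure D1:**
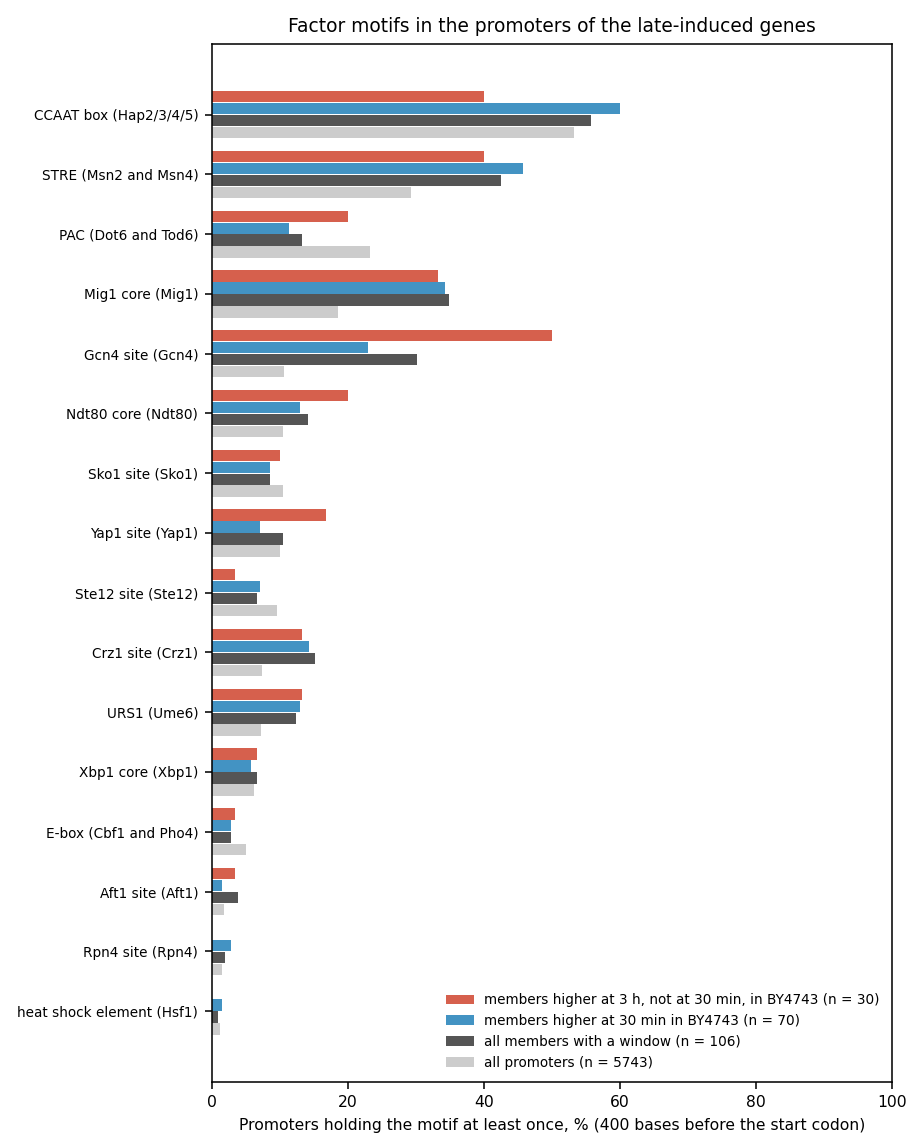
Share of promoters that hold each of the 16 motifs at least once in the 400 bases before the start codon (horizontal axis, percent), for members not higher at 30 min but higher at 3 h in BY4743 (n = 30), members higher at 30 min in BY4743 (n = 70), all members with a window (n = 106) and all promoters (n = 5743). The Gcn4 site is the motif that differs most between the members higher at 3 h but not at 30 min in BY4743 (50%), those higher at 30 min (22.9%) and all promoters (10.6%).

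In the wild strains the 107 members took 0.465% to 0.634% of all counts at T0, 0.425% to 0.642% at T30 and 2.42% to 3.36% at T3h. The median change of the members from T0 on the log2(CPM + 1) scale was 0.06 in BC187, 0.00 in NCYC3290 and -0.13 in YPS128 at T30, and 1.98, 2.21 and 2.50 at T3h in the same order of strains. The number of genes was set mostly by the early limit: 527 genes met the rise at 3 h in all 3 strains, 456 also met the level, and 107 of these met the limit at 30 min. That limit capped a rise and not a fall. The lowest member changes at T30 were -1.35 in BC187 and -1.28 in both NCYC3290 and YPS128. Nearest to the limits, AZF1, ADH6 and ORT1 were inside the 3 h limit at 1.51 each and PDE1, GIS1 and MSN4 outside it at 1.497, 1.49 and 1.49. TFS1, UBC8 and FMP27 were inside the 30 min limit at 0.496, 0.473 and 0.472, and VVS1, SNA2 and CAT2 outside it at 0.503, 0.507 and 0.510. For the level, COA4, SDH6 and ZNF1 were inside at 10.7, 11.2 and 12.2 CPM and DAL1, HPA2 and ECM13 outside at 9.58, 8.91 and 8.46 CPM.

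The scale of the rule bears on its size. With library totals as the scale, the median change of all tested genes at T3h was 0.31 in BC187, 0.63 in NCYC3290 and 0.82 in YPS128, whereas trimmed mean of M values scaling (TMM) put it at 0.07, 0.07 and 0.08. The same limits on TMM-scaled CPM gave 42 genes, of which 41 were among the 107. In BY4743 the same medians were 0.28 at T30 and 0.17 at T3h with library totals, and 0.03 and 0.04 with TMM. On the TMM scale the members' median change at T3h was 1.74 in BC187, 1.63 in NCYC3290 and 1.87 in YPS128. The log2 fold changes and calls in BY4743 below were computed with TMM unless another setting is named. CPM values, and the overlaps and log2(CPM + 1) changes taken from them, use library totals. Counts of calls for the 41 genes on which both scales meet are given once, after those of all members.

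**Figure D2:**
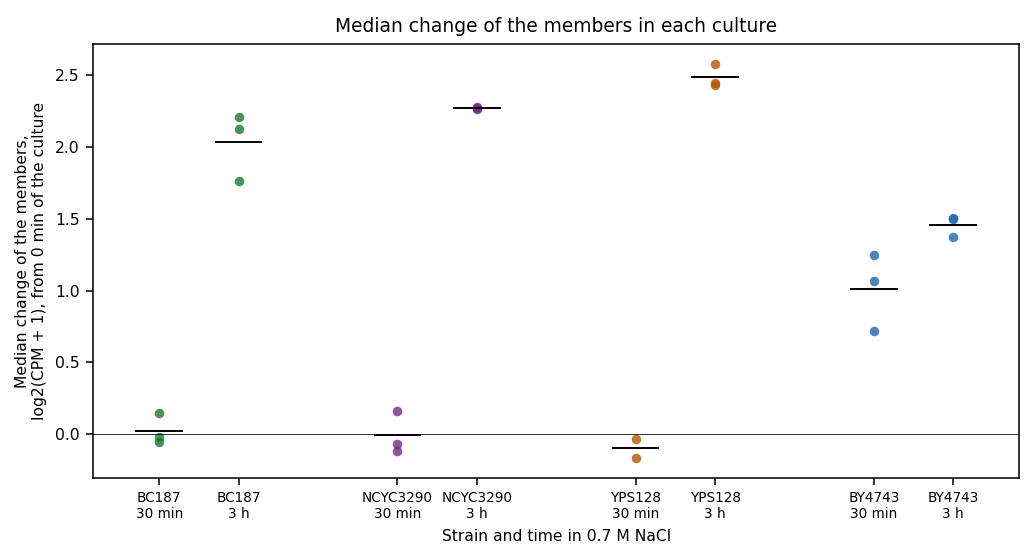
Median over the 107 members of the change in log2(CPM + 1) from T0 of the same culture (vertical axis) in each culture of BC187, NCYC3290, YPS128 and BY4743 at 30 min and 3 h. Points are cultures and lines their means. At 30 min, where the rule capped the rise of each member in the wild strains, the wild cultures lie near 0 and every BY4743 culture lies above them.

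In BY4743 most of these genes were not late. At T30, 71 of the 107 members were higher than at T0 and 7 were lower (edgeR's quasi-likelihood test, Benjamini-Hochberg adjusted p under 0.05 over 5997 genes), against 33.3% of all tested genes higher and 29.3% lower. The members' median log2 fold change was 0.82, against 0.06 for all tested genes. At T3h, 99 members were higher and 1, FET4, was lower, against 23.8% and 20.4% of all genes, with a median of 1.39 against 0.04. Between T30 and T3h, 54 members rose further and 10 fell, against 23.5% and 25.6% of all genes. All 107 passed the filter on low counts. For the role groups below, the members as a whole are the reference. Of all members, 66.4% were higher at T30, 92.5% at T3h and 50.5% at T3h over T30. Group counts near these shares are not particular to a group. Of the 41 genes found on both scales, 30 were higher and 1 lower at T30, and 41 were higher at T3h. Between T30 and T3h, 22 of the 41 rose further and 5 fell.

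These calls fell into a few courses. The largest class, 69 members, was higher at both times, and 26 members had no call at T30 and a rise at T3h. No call is not the same as flat: on the log2(CPM + 1) scale of the rule, 19 of the 26 were at most 0.5 above T0 at T30 in BY4743, and SRY1, NNR1, BAP2, MET10, ATG22, SDH8 and ZNF1 were 0.50 to 0.77 above it. With library totals, 4 of the 13 of these members that were refitted, ORT1, ZNF1, ATG22 and MET10, were called higher at T30. Another 4, LEU4, LYS2, PST1 and SNZ1, were lower at T30 and higher at T3h. The rest were MTL1 and COA4 (called higher at T30 alone), ADH6 and PEX21 (lower at T30 alone), FET4 (lower at both) and AAD4, ISU1 and ZWF1 (no call at either time). The class of MTL1 depended on 1 library, as given below. Among the 71 members higher at T30, 25 rose again by T3h, 10 fell back, MTL1 among them, and 36 had no call between the times. Over the 99 members higher at T3h, a median of 67.4% of the log2 change at T3h was present at T30 (quartiles 22.2% and 97.4%), and in 22 of them the T30 value exceeded that at T3h.

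The calls of lower expression at T30 were less firm than the others. Without BY4743 replicate 1, 2 or 3, the members called lower at T30 numbered 1, 3 and 11, and those called higher 64 to 66. Only PST1 was called lower in all 3 of these fits. With library totals in place of TMM, 83 members were higher and 2 lower at T30, and the split over all genes moved to 2546 higher and 1157 lower, from 1997 and 1758 with TMM. The BY4743 T30 library of replicate 1 was the one least like its replicates (Pearson r 0.946 and 0.964 over genes), and its part in these results was examined only through the fits without replicate 1.

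**Figure D3:**
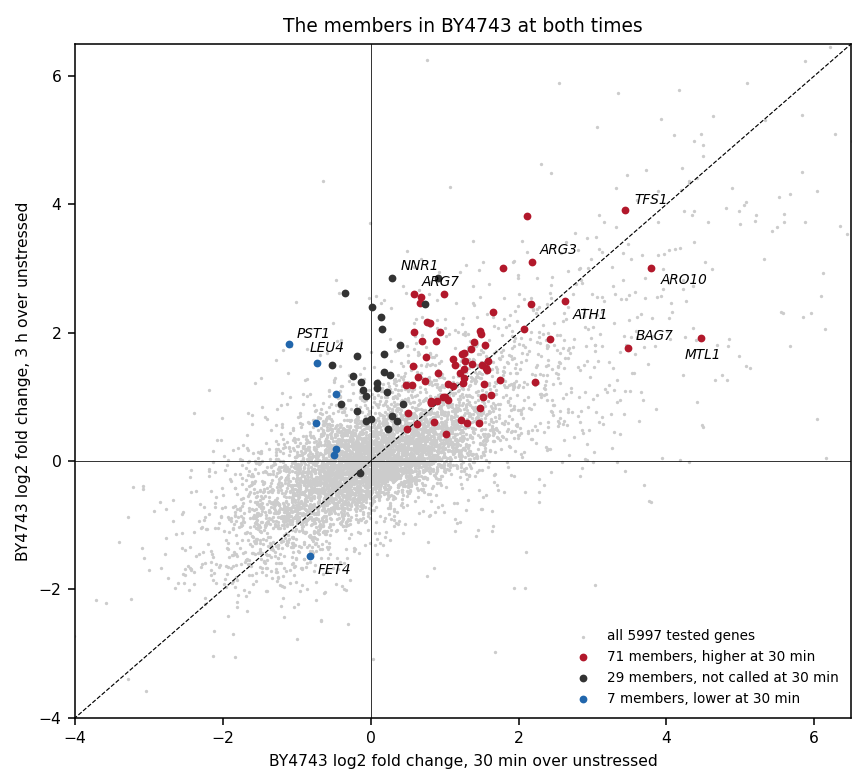
BY4743 log2 fold changes over T0 at 30 min (horizontal axis) and at 3 h (vertical axis), with the 5997 tested genes in grey (26 lie outside the range drawn) and the 107 members coloured by their call at 30 min. The dashed line marks equal change at both times. Most members lie to the right of 0, while LEU4 and PST1 lie left of 0 and well above the line. The position of MTL1 at 30 min rests on 1 library.

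**Figure D4:**
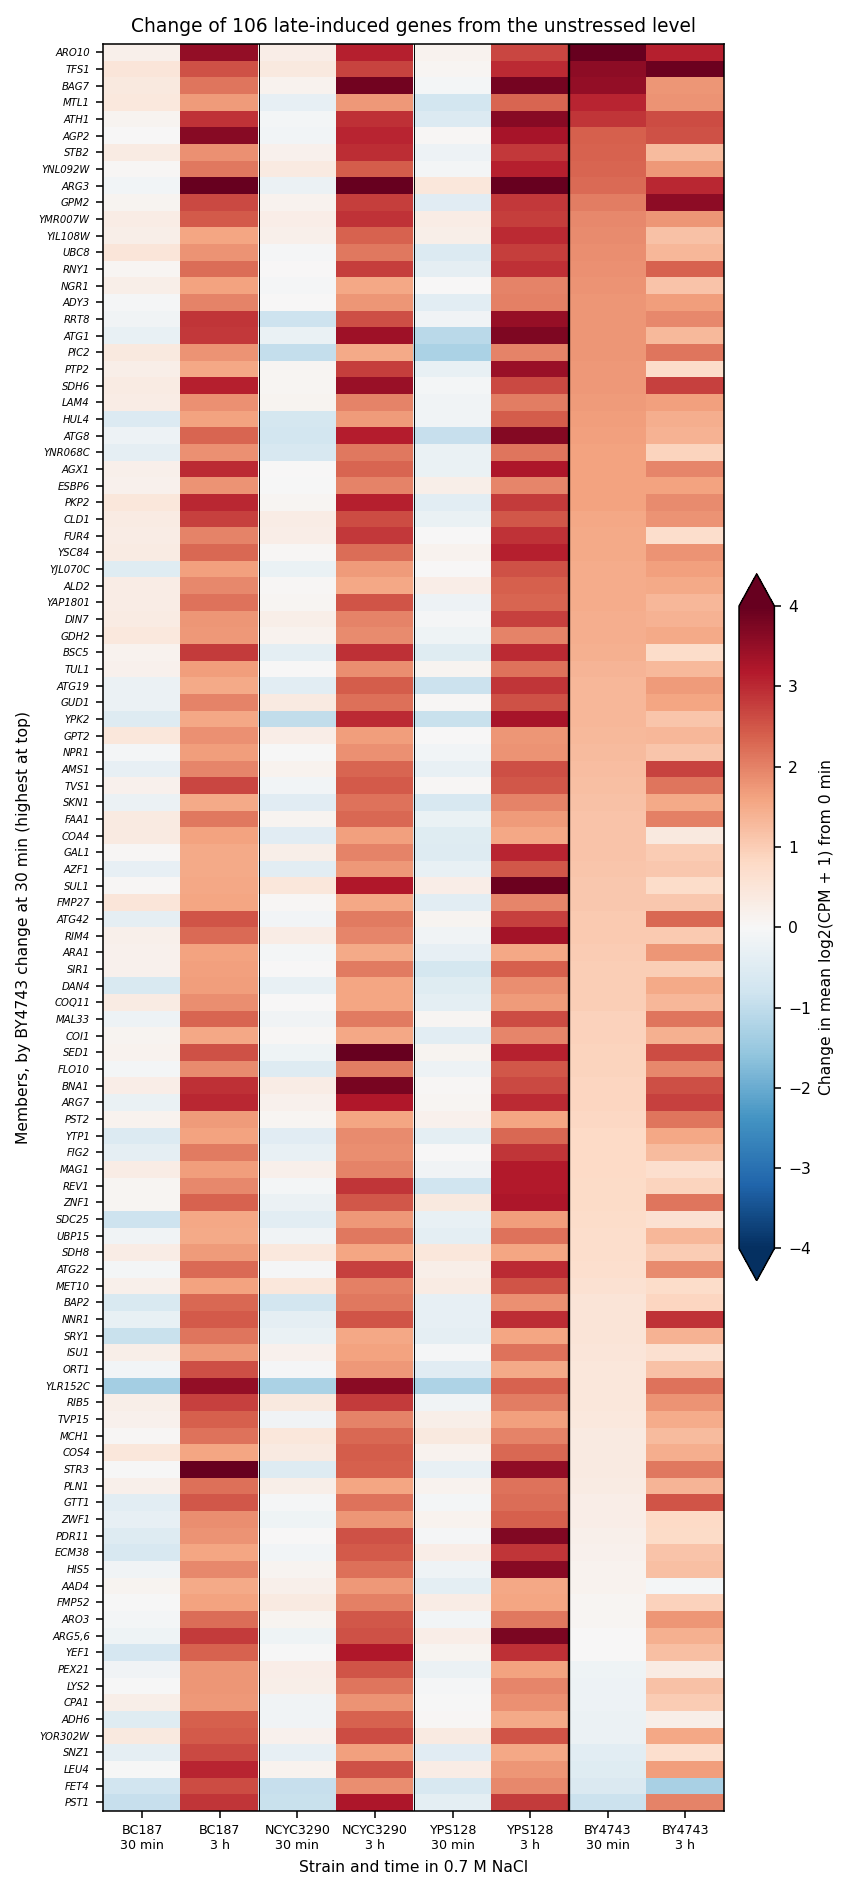
Change in mean log2(CPM + 1) from T0 for 106 of the 107 members (rows, ordered by the BY4743 change at 30 min) at 30 min and 3 h in BC187, NCYC3290, YPS128 and BY4743 (columns). The wild strains are red at 3 h, as the rule required, and pale at 30 min, where it capped a rise but not a fall. The BY4743 column at 30 min runs from 4.04 at the top to -0.85 at the bottom.

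Arginine synthesis members were higher at T3h than at T30 in BY4743. Those described here were ARG3 (ornithine carbamoyltransferase), CPA1 (a subunit of carbamoyl phosphate synthetase), ARG7 and ARG5,6 (mitochondrial enzymes that make ornithine), ORT1 (the carrier that exports ornithine from mitochondria) and YOR302W, the arginine attenuator peptide encoded in the leader of the CPA1 transcript. In BY4743, 6 of 6 were higher at T3h than at T0 (92.5% of all members). At T3h over T30, 6 of 6 were higher (50.5% of all members and 23.5% of all genes). Already higher at T30 were 2 of 6, ARG3 and ARG7 (66.4% of all members and 33.3% of all genes).

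In BC187 ARG5,6 had 81.8 to 89.2 CPM at T0, 78.7, 71.8 and 75.8 CPM at T30 and 534, 608 and 657 CPM at T3h. In NCYC3290 it had 87.5, 94.3 and 78.8 CPM at T0, 84.2, 76.6 and 71.1 CPM at T30 and 455, 531 and 537 CPM at T3h. In YPS128 it had 36.7, 22.7 and 41.6 CPM at T0, 42.4 and 36.3 CPM at T30 and 476, 472 and 418 CPM at T3h. The T3h libraries thus stood far above the T0 and T30 libraries in each wild strain, with no overlap.

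ARG3 showed the largest 3 h change of all members, a mean of 5.16 on the log2(CPM + 1) scale over the 3 wild strains. YPS128 had 0.713, 0.819 and 3.29 CPM at T0, 2.20 and 2.25 CPM at T30 and 324, 248 and 292 CPM at T3h, BC187 had 142, 151 and 173 CPM at T3h against 4.00, 9.05 and 4.84 CPM at T0, and NCYC3290 had 200.4, 227 and 259 CPM at T3h against 12.1, 15.2 and 12.1 CPM at T0. BY4743 had 4.04, 5.09 and 1.58 CPM at T0, 19.6, 25.5 and 15.0 CPM at T30 and 25.4, 37.9 and 39.1 CPM at T3h. At T3h every wild library was thus above every BY4743 library, the highest of which had 39.1 CPM. ARG3 was an exception to the delay in BY4743, with a rise at T30 (log2 fold change 2.19 ± 0.35, edgeR adjusted p = 4.43e-06) that preceded the T3h level (log2 fold change 3.11 ± 0.34, edgeR adjusted p = 1.05e-08).

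ARG7 had 303, 455 and 464 CPM at T3h, against 55.6, 68.5 and 55.0 CPM at T0 in BY4743 (log2 fold change 2.60 ± 0.16, edgeR adjusted p = 3.88e-14), with 111, 119 and 96.6 CPM between them at T30. ARG5,6 had 134, 220.0 and 167 CPM at T3h, against 60.0, 66.0 and 61.6 CPM at T0 (log2 fold change 1.32 ± 0.19, edgeR adjusted p = 9.08e-07), and its T30 libraries, 54.4 to 71.0 CPM, overlapped those at T0. In the wild strains ARG5,6 reached 418 to 657 CPM at T3h, above all BY4743 libraries. CPA1 rose less, with 209, 405 and 313 CPM at T3h, against 150.1, 157 and 139 CPM at T0 in BY4743 (log2 fold change 0.89 ± 0.23, edgeR adjusted p = 0.00202), and YOR302W, whose frame ends 56 bases before CPA1 begins on the same strand, had 23.9, 43.6 and 36.1 CPM at T3h, against 11.9, 9.08 and 12.1 CPM at T0 (edgeR adjusted p = 3.33e-06). Reads of 1 transcript can count for both, so these are not independent observations. ORT1 had 35.5, 24.5 and 36.3 CPM at T3h, against 15.4, 10.5 and 15.2 CPM at T0 (log2 fold change 1.08 ± 0.17, edgeR adjusted p = 5.88e-06).

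The wider list of arginine, lysine and leucine synthesis held 29 tested genes, among them LEU2, which is deleted in BY4743 and had 0 counts there. In BY4743, 4 of the 29 were higher and 10 lower at T30 (33.3% and 29.3% of all genes), with a median log2 fold change of -0.24 against 0.06 for all genes. At T3h, 14 were higher and 2 lower, and from T30 to T3h 22 were higher and 1 lower, against 23.5% and 25.6% of all genes. In the wild strains 10 of the 29 were at least 1.5 above T0 at T3h in all 3, of which ARG1, ARG4 and LYS1 missed membership only by a T30 value just over 0.5 in 1 strain. A further 18 were at most 0.5 above T0 at T30 in every wild strain and fell short of 1.5 at T3h in at least 1.

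Genes for other amino acids and for sulfate use numbered 8 among the members: STR3 (cystathionine beta-lyase), HIS5 (histidinol-phosphate aminotransferase), LEU4 (alpha-isopropylmalate synthase, the first committed step to leucine), ARO3 (entry to aromatic amino acids), LYS2 (alpha-aminoadipate reductase), MET10 (a sulfite reductase subunit), SUL1 (a sulfate permease) and AGX1 (an aminotransferase that makes glycine). In BY4743, 8 of 8 were higher at T3h, 2 (SUL1 and AGX1) were higher and 2 (LEU4 and LYS2) lower at T30, and 5 were higher at T3h than at T30. The T3h call of MET10 was lost without BY4743 replicate 1 (edgeR adjusted p = 0.0510) or 2 (edgeR adjusted p = 0.144), and that of SUL1 without replicate 2 (edgeR adjusted p = 0.0520).

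In BC187 LEU4 had 282 to 308 CPM at T0, 283, 284 and 302 CPM at T30 and 2477, 2970.3 and 1923 CPM at T3h. In NCYC3290 it had 220.1, 224 and 235 CPM at T0, 295, 219 and 245 CPM at T30 and 1351, 1496 and 1155 CPM at T3h. In YPS128 it had 253, 313 and 251 CPM at T0, 376 and 294 CPM at T30 and 961, 1176 and 703 CPM at T3h. BC187 thus reached the highest level and YPS128 the lowest of the wild strains at T3h. BY4743 had 680.1, 651 and 488 CPM at T0, 417, 401 and 468 CPM at T30 and 1927, 2204 and 1638 CPM at T3h, so that it was lower at T30 (log2 fold change -0.73 ± 0.23, edgeR adjusted p = 0.00668) and higher at T3h (log2 fold change 1.52 ± 0.23, edgeR adjusted p = 2.3e-06). The T30 call was lost without BY4743 replicate 1 (log2 fold change -0.58, edgeR adjusted p = 0.0849) or 2 (-0.49, edgeR adjusted p = 0.129). LYS2 had 232 to 438 CPM at T0 and 839.9 to 1449.8 CPM at T3h over the wild libraries. In BY4743, which has 1 copy, it had 192, 217 and 179 CPM at T0, 166, 174 and 168 CPM at T30 and 373, 558 and 411 CPM at T3h. It was thus lower in BY4743 than in every wild library at each time, with a rise of its own at T3h (log2 fold change 1.04 ± 0.18, edgeR adjusted p = 1.43e-05).

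STR3 had the widest range of strain means among the wild strains at T3h, 2.50 on the log2(CPM + 1) scale. BC187 had 1.71, 0.679 and 1.74 CPM at T0, 2.85, 0.423 and 1.26 CPM at T30 and 30.5, 49.1 and 31.3 CPM at T3h, NCYC3290 had 15.8, 19.4 and 14.1 CPM at T0, 10.7, 11.1 and 11.3 CPM at T30 and 87.1, 78.0 and 109 CPM at T3h and YPS128 had 0.178, 0.819 and 0.235 CPM at T0, 0.276 and 0 CPM at T30 and 14.4, 21.5 and 11.2 CPM at T3h. NCYC3290 was the highest at each time and YPS128 was below 1 CPM in every library at T0 and T30, so its change depends on the added 1. BY4743 had 3.66, 4.18 and 2.98 CPM at T0, 5.16, 5.52 and 3.89 CPM at T30 and 13.3, 22.1 and 22.0 CPM at T3h, with no call at T30 (log2 fold change 0.14 ± 0.36, edgeR adjusted p = 0.755) and a rise at T3h (log2 fold change 2.25 ± 0.30, edgeR adjusted p = 3.7e-07). ARO3 had 542, 692 and 779 CPM at T3h, against 178, 192 and 211 CPM at T0 in BY4743 (log2 fold change 1.64 ± 0.12, edgeR adjusted p = 4.88e-12), and HIS5 had 161, 264 and 258 CPM, against 103, 95.0 and 87.9 CPM (log2 fold change 1.10 ± 0.18, edgeR adjusted p = 5.51e-06). Neither had a call at T30. SUL1 behaved otherwise: its BY4743 libraries had 44.6, 55.5 and 53.6 CPM at T30, against 24.2, 21.6 and 24.5 CPM at T0 (log2 fold change 0.85 ± 0.18, edgeR adjusted p = 0.000169), and 33.8 to 44.8 CPM at T3h.

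Members for uptake and breakdown of amino acids were higher at T3h in BY4743 (92.5% of all members), and some already at T30 (66.4% of all members). AGP2 (a plasma membrane permease and regulator), BAP2 (a permease for branched-chain amino acids), ARO10 (phenylpyruvate decarboxylase), GDH2 (the glutamate dehydrogenase that releases ammonium), SRY1 (3-hydroxyaspartate dehydratase), ECM38 (gamma-glutamyltranspeptidase) and NPR1 (a kinase that stabilises permeases) were all higher at T3h in BY4743, and 4 of the 7 were higher at T30. Over the wild libraries ARO10 had 11.9 to 20.4 CPM at T0, 13.1 to 26.2 CPM at T30 and 82.5 to 229 CPM at T3h. BY4743 had 46.0, 37.4 and 45.0 CPM at T0, 681, 814 and 658 CPM at T30 and 298, 414 and 435 CPM at T3h, the second largest T30 change of all members (log2 fold change 3.79 ± 0.21, edgeR adjusted p = 2.92e-15), and fell back by T3h (log2 fold change -0.79 ± 0.19, edgeR adjusted p = 0.000968), so that all BY4743 libraries at each time stood above all wild ones. AGP2 had 146, 148 and 117 CPM at T30, against 26.0, 23.3 and 25.9 CPM at T0 in BY4743 (log2 fold change 2.17 ± 0.18, edgeR adjusted p = 2.8e-11). BAP2 had 246 to 339.7 CPM at T0, 170.1 to 242 CPM at T30 and 717 to 1720.5 CPM at T3h over the wild libraries. BY4743 had 562, 636 and 591 CPM at T0, 829, 842 and 915 CPM at T30 and 1117, 1086 and 1019.8 CPM at T3h, with no call at T30 (log2 fold change 0.28 ± 0.20, edgeR adjusted p = 0.22) and a rise at T3h (log2 fold change 0.70 ± 0.20, edgeR adjusted p = 0.00466).

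The cofactor genes among the members were higher at T3h than at T30 in BY4743. BNA1 (a step of NAD synthesis from tryptophan), RIB5 (riboflavin synthase), SNZ1 (vitamin B6 synthesis), NNR1 (which repairs damaged NADH hydrates) and YEF1 (an NAD kinase) were all higher at T3h than at T0 and than at T30 in BY4743, where only BNA1 was already higher at T30 and SNZ1 was lower. The T3h call of SNZ1 was lost without BY4743 replicate 2 (log2 fold change 0.41, edgeR adjusted p = 0.176) and with the BY4743 libraries alone (edgeR adjusted p = 0.0757), and its T30 call without replicate 1 (edgeR adjusted p = 0.0719) and with library totals (edgeR adjusted p = 0.0878). The wider list of vitamin genes, 31 tested with BNA1 and SNZ1 among them, had 12 higher and 7 lower at T30 in BY4743, and 9 higher and 9 lower at T3h over T30 (median log2 fold change 0.09). NNR1 had 9.24, 9.63 and 9.11 CPM at T0, 16.3, 12.2 and 13.2 CPM at T30 and 84.4, 65.4 and 75.7 CPM at T3h (T3h over T0: log2 fold change 2.86 ± 0.24, edgeR adjusted p = 4.31e-11). BNA1 had 55.1, 61.4 and 80.1 CPM at T3h, against 11.4, 8.18 and 10.7 CPM at T0, in BY4743 (log2 fold change 2.56 ± 0.19, edgeR adjusted p = 2.05e-12). In NCYC3290 BNA1 had 1.45, 0.442 and 0.794 CPM at T0, 1.46, 0.873 and 1.55 CPM at T30 and 30.9, 15.7 and 30.0 CPM at T3h, the lowest level of the 4 strains at T0.

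Autophagy and vacuolar breakdown supplied 8 members: ATG1 (the kinase that starts autophagy), ATG8 (the ubiquitin-like protein of the autophagosome membrane), ATG19 (a receptor for vacuolar enzymes), ATG22 (an amino acid exporter of the vacuole), ATG42 (a vacuolar carboxypeptidase), AMS1 (alpha-mannosidase), RNY1 (a ribonuclease) and ATH1 (acid trehalase). In BY4743, 7 of 8 were higher at T30, all but ATG22 (66.4% of all members), and 8 of 8 at T3h (92.5% of all members).

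ATG1 had 29.3, 25.3 and 28.1 CPM at T0, 23.0, 21.3 and 21.7 CPM at T30 and 164, 194 and 257 CPM at T3h in BC187. In NCYC3290 it had 19.1, 14.8 and 23.8 CPM at T0, 17.8, 12.7 and 17.2 CPM at T30 and 213, 187 and 227 CPM at T3h. In YPS128 it had 14.4, 10.4 and 19.3 CPM at T0, 4.41 and 8.79 CPM at T30 and 208, 189 and 211 CPM at T3h. By library totals, every wild culture was lower at T30 than at T0 and far higher at T3h. The fall was small in NCYC3290 replicate 1, whose TMM factors were 0.967 at T0 and 0.884 at T30. It was not recounted with TMM. BY4743 had 32.3, 31.1 and 40.6 CPM at T0, 150.0, 136 and 83.2 CPM at T30 and 71.1, 92.8 and 99.1 CPM at T3h, a rise at T30 (log2 fold change 1.53 ± 0.16, edgeR adjusted p = 2.04e-09) and a T3h level also above T0 (log2 fold change 1.19 ± 0.16, edgeR adjusted p = 3.27e-07), and the BY4743 T3h libraries were all below the wild ones. T3h and T30 had no call between them (log2 fold change -0.34 ± 0.15, edgeR adjusted p = 0.0654), but 5 of 13 alternatives called T3h lower, with log2 fold changes of -0.51 to -0.34, among them library totals, DESeq2 and the fit without replicate 3. ATG8 had 14.9 to 89.5 CPM at T3h over the wild libraries, where BC187 was the lowest, and 6.93, 5.63 and 7.01 CPM at T0, 27.4, 32.9 and 12.2 CPM at T30 and 22.7, 12.4 and 23.7 CPM at T3h in BY4743 (T30 over T0: log2 fold change 1.57 ± 0.30, edgeR adjusted p = 3.77e-05).

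ATH1 had 8.56 to 23.2 CPM at T30 and 97.7 to 181 CPM at T3h over the wild libraries, and 28.7, 28.2 and 27.5 CPM at T0, 240.3, 234 and 166 CPM at T30 and 175, 163 and 187 CPM at T3h in BY4743 (T30 over T0: log2 fold change 2.63 ± 0.18, edgeR adjusted p = 4.75e-13). The T3h levels of the strains overlapped, and those at T30 lay far apart. AMS1 rose in steps in BY4743, with 24.4, 27.3 and 25.4 CPM at T0, 63.1, 68.4 and 55.2 CPM at T30 and 160.3, 163 and 198 CPM at T3h (T3h over T30: log2 fold change 1.61 ± 0.16, edgeR adjusted p = 2.46e-09). ATG22 had no call at T30, although all its T30 libraries were above those at T0, with 26.0, 21.6 and 19.1 CPM at T0, 40.5, 37.7 and 29.0 CPM at T30 and 97.7, 100.5 and 62.1 CPM at T3h (T30 over T0: log2 fold change 0.40 ± 0.23, edgeR adjusted p = 0.135, T3h over T0: log2 fold change 1.81 ± 0.23, edgeR adjusted p = 1.28e-07). With library totals it was called higher at T30 (log2 fold change 0.68, edgeR adjusted p = 0.00627). Of the wider autophagy and vacuole list of 36 tested genes, 24 were higher and 6 lower at T30 in BY4743 and 27 higher and 4 lower at T3h, against 33.3% and 29.3% of all genes at T30 and 23.8% and 20.4% at T3h. Of the 8 members above, 4 are on this list.

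**Figure D5:**
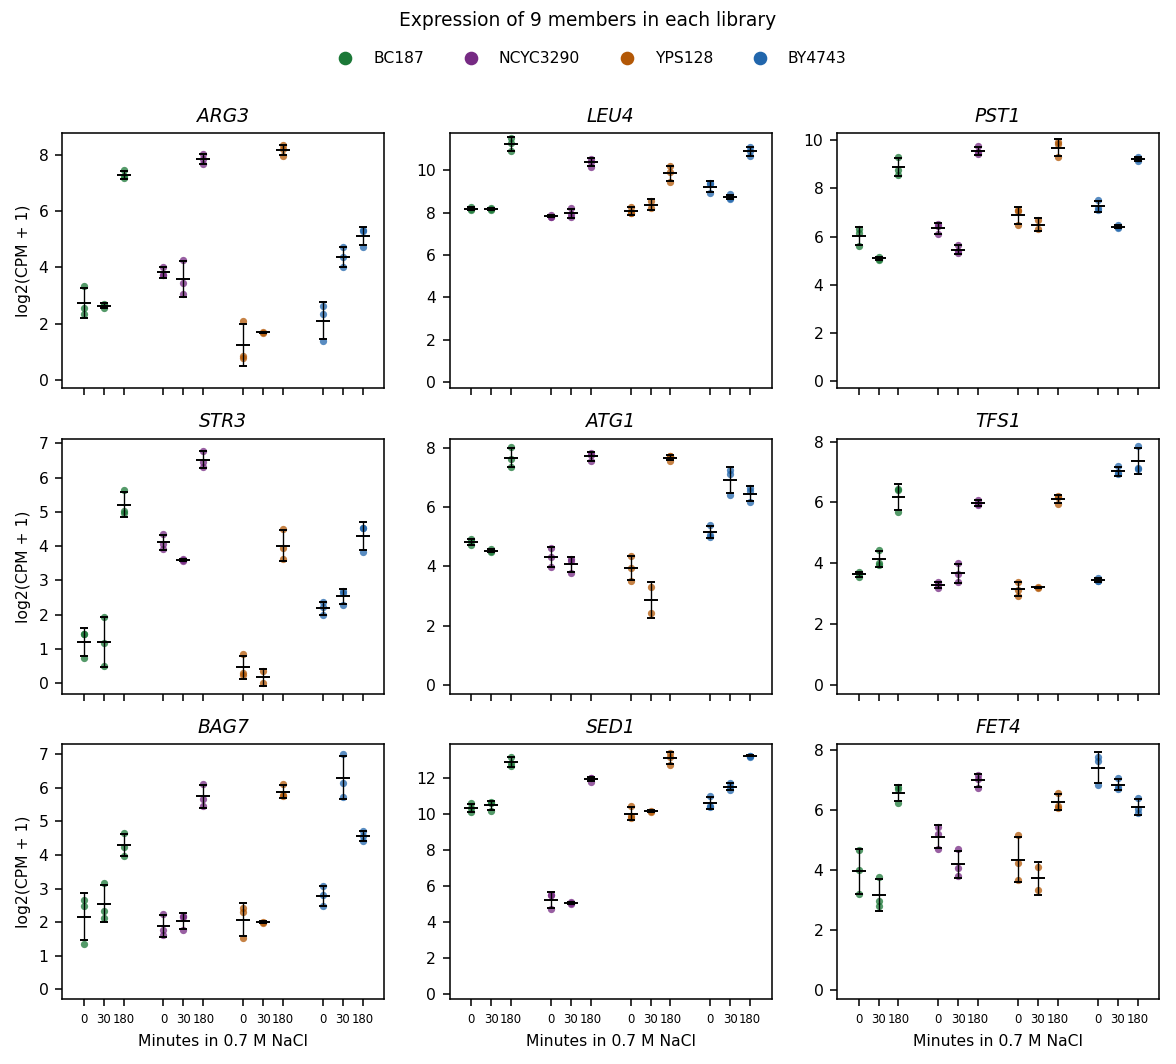
log2(CPM + 1) of 9 members in each library (vertical axis) at 0, 30 and 180 min in 0.7 M NaCl (horizontal axis) in BC187, NCYC3290, YPS128 and BY4743. Points are libraries, and bars the mean ± SD. LEU4 and PST1 are lower at 30 min than at 0 min in BY4743, ATG1, TFS1 and BAG7 are high at 30 min in BY4743 alone, SED1 starts far lower in NCYC3290, and FET4 is lower with time in BY4743.

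Cell wall and surface genes made up 8 members. SED1 (a major GPI-anchored wall protein) had 25.4, 43.9 and 45.1 CPM at T0, 34.2, 32.3 and 31.1 CPM at T30 and 3634, 4246 and 4151 CPM at T3h in NCYC3290. BC187 had 1127, 1557 and 1294 CPM at T0 and YPS128 had 975, 1389 and 872 CPM. The counted unstressed level in NCYC3290 was thus lower than in the other strains by far more than the spread between libraries. Its T3h libraries were the lowest too. Whether mapping to S288c had a part in this was not tested. The T3h libraries had 7302, 9478 and 6575 CPM in BC187, 9389, 10961 and 6957 CPM in YPS128 and 9906, 9868 and 9552 CPM in BY4743. In BY4743 SED1 rose by T30 (log2 fold change 0.66 ± 0.24, edgeR adjusted p = 0.0161), a call lost without replicate 3 (log2 fold change 0.28, edgeR adjusted p = 0.346) and without the replicate block (0.61, edgeR adjusted p = 0.0555), and rose further by T3h (log2 fold change 2.47 ± 0.25, edgeR adjusted p = 1.88e-09).

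PST1, a wall protein induced by wall damage, had 47.2 to 138 CPM at T0, 32.0 to 102 CPM at T30 and 376 to 982 CPM at T3h over the wild libraries. BY4743 had 143, 184 and 137 CPM at T0, 83.9, 81.2 and 88.1 CPM at T30 and 641, 601 and 569 CPM at T3h, lower at T30 (log2 fold change -1.11 ± 0.23, edgeR adjusted p = 0.000137) and higher at T3h (log2 fold change 1.82 ± 0.23, edgeR adjusted p = 1.24e-07). It thus had the late course of the wild strains in BY4743 too. BAG7, a GTPase-activating protein for Rho1 that acts in wall signalling, did the opposite. The wild libraries had 2.40 to 8.03 CPM at T30 and 14.8 to 68.1 CPM at T3h, lowest in BC187. BY4743 had 4.62, 7.45 and 5.95 CPM at T0, 128, 70.4 and 52.6 CPM at T30 and 20.3, 22.5 and 25.2 CPM at T3h, higher at T30 (log2 fold change 3.48 ± 0.30, edgeR adjusted p = 5.82e-11) and lower at T3h than at T30 (log2 fold change -1.72 ± 0.27, edgeR adjusted p = 5.05e-06). MTL1, a sensor of wall stress, had 3.27, 4.91 and 2.63 CPM at T0, 310.1, 14.6 and 9.85 CPM at T30 and 10.4, 18.4 and 15.9 CPM at T3h in BY4743. Its T30 change of 4.46 rested on 1 library: without BY4743 replicate 1 it was 1.41 (edgeR adjusted p = 0.00171), and the change from T30 to T3h turned to 0.57 (edgeR adjusted p = 0.149). At T3h MTL1 had no call over T0 (log2 fold change 1.92 ± 0.92, edgeR adjusted p = 0.0978), though all its T3h libraries were above those at T0. Without replicate 1 it was called higher at T3h (1.98, edgeR adjusted p = 3.3e-05). It was also called with library totals, with DESeq2 and with a block per culture. SKN1 (glucan synthesis), FIG2, FLO10 and DAN4 (surface proteins) were higher at both times in BY4743. The T30 call of DAN4 was lost without replicate 1, and that of FLO10 without replicate 1 or 2, and that of FIG2 without replicate 1 or 3. The T30 call of FIG2 was also lost without the replicate block (edgeR adjusted p = 0.0814), with a block per culture (edgeR adjusted p = 0.0605) and with the BY4743 libraries alone (edgeR adjusted p = 0.0523), and that of DAN4 with the BY4743 libraries alone (edgeR adjusted p = 0.0862).

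Mitochondrial proteins gave 9 members, of which 7 were higher at T30 (66.4% of all members) and 7 at T3h (92.5% of all members) in BY4743. They included SDH6 and SDH8 (assembly of succinate dehydrogenase), COA4 (assembly of cytochrome oxidase), COQ11 (coenzyme Q), PKP2 (pyruvate dehydrogenase kinase), PIC2 (copper and phosphate carrier), CLD1 (cardiolipin deacylase) and ISU1 (iron-sulfur scaffold). SDH6 had at most 2.08 CPM at T0 in the wild libraries, and 1.92, 2.36 and 2.63 CPM at T0, 12.5, 10.6 and 7.25 CPM at T30 and 25.6, 17.0 and 20.4 CPM at T3h in BY4743 (T3h over T0: log2 fold change 3.00 ± 0.32, edgeR adjusted p = 5.33e-09). PIC2 had 115, 114 and 93.8 CPM at T30, against 22.7, 38.2 and 33.6 CPM at T0 (log2 fold change 1.48 ± 0.23, edgeR adjusted p = 2.83e-06). None of the 17 TCA cycle genes and 35 oxidative phosphorylation genes listed was a member.

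Redox enzymes split between the courses. GTT1 (a glutathione transferase) had 31.6, 34.2 and 23.5 CPM at T0, 40.5, 31.0 and 35.8 CPM at T30 and 185, 172 and 161 CPM at T3h in BY4743, a late rise (T30 over T0: log2 fold change 0.02 ± 0.23, edgeR adjusted p = 0.941, T3h over T0: log2 fold change 2.40 ± 0.22, edgeR adjusted p = 3.6e-10). PST2 (a flavodoxin-like protein), ARA1 (a reductase of arabinose and other carbonyls) and ALD2 (an aldehyde dehydrogenase) were higher at both times. ADH6 (an NADPH-dependent alcohol dehydrogenase) had 562 to 1263 CPM at T3h, against 176 to 291 CPM at T0, in the wild libraries, and 404, 412 and 398 CPM at T3h, against 317, 379 and 328 CPM at T0, in BY4743 (log2 fold change 0.10 ± 0.17, edgeR adjusted p = 0.682). ZWF1 (glucose-6-phosphate dehydrogenase) had 383, 302 and 312 CPM at T3h, against 194, 209 and 165 CPM at T0 in BY4743 and did not pass the test (log2 fold change 0.65 ± 0.28, edgeR adjusted p = 0.0568). AAD4, an aryl-alcohol dehydrogenase homologue, had 4.11, 10.3 and 7.26 CPM, against 7.31, 9.45 and 5.43 CPM (log2 fold change -0.18 ± 0.23, edgeR adjusted p = 0.554).

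Among signalling and regulatory members, 8 of 9 were higher at T30 (66.4% of all members) and 9 of 9 at T3h (92.5% of all members) in BY4743. TFS1, which inhibits carboxypeptidase Y and is a textbook target of Msn2 and Msn4, had 8.11 to 20.7 CPM at T30 and 50.5 to 86.8 CPM at T3h over the wild libraries. BY4743 had 10.4, 9.63 and 9.63 CPM at T0, 146, 123 and 121 CPM at T30 and 135, 139 and 228 CPM at T3h. This was the largest T3h change of the members in BY4743 (log2 fold change 3.91 ± 0.21, edgeR adjusted p = 1.94e-15), most of it present at T30 (log2 fold change 3.44 ± 0.20, edgeR adjusted p = 1.21e-14). PTP2, the phosphatase that switches Hog1 off, had 144, 193 and 157 CPM at T30 in BY4743, against 34.3, 57.2 and 58.0 CPM at T0 (log2 fold change 1.46 ± 0.21, edgeR adjusted p = 5.9e-07), and fell back by T3h (log2 fold change -0.87 ± 0.20, edgeR adjusted p = 0.000878). NGR1 (an RNA-binding protein) and STB2 (which binds the Sin3 corepressor) fell back as well. YPK2 (a kinase downstream of TORC2), SDC25 (a Ras exchange factor), AZF1 and MAL33 (zinc finger activators) were higher at both times, though MAL33 lost its T30 call without replicate 3 or the block. ZNF1, an activator of respiratory genes, had no call at T30 (log2 fold change 0.74 ± 0.43, edgeR adjusted p = 0.136) but gained one with library totals (log2 fold change 1.02, edgeR adjusted p = 0.0421). On the list of canonical Msn2 and Msn4 targets, 34 of 35 genes were higher at T30 and 35 at T3h in BY4743, and only TFS1 and ALD2 of these were members.

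The 4 ubiquitin pathway members, UBC8, UBP15, HUL4 and TUL1, the 3 DNA repair members, MAG1, REV1 and DIN7, and the 2 sporulation members, RIM4 and ADY3, were all higher at T30 and at T3h in BY4743. Of 5 lipid genes, 5 were higher at T3h and 3 at T30. Beside these small groups, 92.5% of all members were higher at T3h and 66.4% at T30. PLN1, a protein of lipid droplets, had 109 to 431 CPM at T0 over the wild libraries, all above BY4743, where it had 63.5, 67.6 and 62.7 CPM at T0, 74.4, 80.2 and 89.9 CPM at T30 and 171, 165 and 165 CPM at T3h, with a rise at T3h (log2 fold change 1.22 ± 0.22, edgeR adjusted p = 3.02e-05). PDR11, a transporter for sterol uptake, was higher at T3h in BY4743 as well (log2 fold change 0.62 ± 0.17, edgeR adjusted p = 0.00282). Its T3h libraries had 134 to 487 CPM in the wild strains and 52.7 to 65.7 CPM in BY4743.

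Outside these groups were 25 members, of which 18 were higher and 2 lower at T30 and 23 higher and 1 lower at T3h in BY4743. GPM2, a homologue of phosphoglycerate mutase, had 4.81, 2.73 and 2.63 CPM at T0, 22.6, 23.1 and 8.81 CPM at T30 and 54.4, 32.4 and 72.3 CPM at T3h (T3h over T0: log2 fold change 3.81 ± 0.26, edgeR adjusted p = 7.42e-13), the second largest T3h change in BY4743. YLR152C had 19.3 to 35.8 CPM at T0, 8.77 to 14.2 CPM at T30 and 106 to 415 CPM at T3h in the wild libraries, with no overlap between the times. BY4743 had 17.5, 21.1 and 24.3 CPM at T0, 32.5, 32.9 and 22.0 CPM at T30 and 106, 102 and 84.6 CPM at T3h (T3h over T0: log2 fold change 2.05 ± 0.23, edgeR adjusted p = 1.18e-08). FUR4, the uracil permease, had 88.7, 99.2 and 108 CPM at T30 in the ura3 strain BY4743, against 34.6, 36.5 and 30.1 CPM at T0 (log2 fold change 1.30 ± 0.21, edgeR adjusted p = 4.89e-06), and fell back by T3h (log2 fold change -0.71 ± 0.21, edgeR adjusted p = 0.00556). The last call was lost without replicate 3 (edgeR adjusted p = 0.211).

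FET4, a low-affinity importer of iron and other metals, was the 1 member that fell in BY4743 at T3h. BC187 had 24.4, 14.9 and 8.13 CPM at T0, 12.6, 6.76 and 5.90 CPM at T30 and 74.5, 107 and 102 CPM at T3h, NCYC3290 had 35.7, 42.4 and 24.8 CPM at T0, 15.9, 24.9 and 13.0 CPM at T30 and 106, 143 and 131 CPM at T3h and YPS128 had 34.6, 17.6 and 11.7 CPM at T0, 16.3 and 9.01 CPM at T30 and 65.9, 93.8 and 69.3 CPM at T3h. BY4743 had 196, 217 and 113 CPM at T0, 103, 133 and 108 CPM at T30 and 63.6, 83.1 and 58.1 CPM at T3h (T3h over T0: log2 fold change -1.48 ± 0.28, edgeR adjusted p = 7.15e-05). All wild libraries at T0 were below all BY4743 libraries at T0, and at T3h the strains overlapped. FET4 lies next to ADH6, 736 bases away on the same strand.

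Member levels in each strain are given as a description, since the rule capped the wild rise at T30 and required one at T3h. The median member level on the log2(CPM + 1) scale was 4.01 in BC187, 4.22 in NCYC3290, 3.68 in YPS128 and 4.70 in BY4743 at T0, 3.95, 4.06, 3.30 and 5.87 at T30, and 6.26, 6.66, 6.42 and 6.24 at T3h, always in this order of strains. All wild libraries were below all BY4743 libraries for 33 members at T0, 81 at T30 and 12 at T3h, and above them for 3, 3 and 22. Over all tested genes, the wild libraries were all below in 10.2% at T0, 32.7% at T30 and 5.25% at T3h, and all above in 3.59%, 11.3% and 12.5%. The medians and counts for the members rest on the wild values that the rule used, which limited their rise at T30, so nothing is read from them. COS4 (a subtelomeric gene of the COS family) was among the 22, with 26.0 to 96.0 CPM at T3h in the wild libraries, against 3.87, 2.03 and 2.07 CPM in BY4743. Its copies are alike: 54.4% of its 100-base windows were unique in the genome, and counts of COS genes are uncertain for that reason.

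The members lay on 15 of the 16 nuclear chromosomes. Within 30000 bases of a chromosome end lay 16 members (15.0%), against 5.75% of all tested genes with a position. There were 7 pairs of adjacent members: GAL1 and FUR4, ADY3 and GUD1, SDH6 and ARO10, SIR1 and FLO10, ADH6 and FET4, YNR068C and BSC5, and YOR302W and CPA1. YNR068C and BSC5, 237 bases apart, were both higher at T30 and at T3h than at T0 in BY4743, and lower at T3h than at T30. Both calls between T30 and T3h were lost without replicate 1 (edgeR adjusted p = 0.169 for YNR068C and 0.0566 for BSC5). The T3h call of BSC5 over T0 was lost without replicate 2 (edgeR adjusted p = 0.0818). Only 2 members, COS4 and ALD2 (77.5%), had fewer than 80% of their windows once in the genome.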

How the data were processed

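The authors deposited whole-number read counts per gene for each library, not normalized. According to the methods of the study, RNA was depleted of rRNA, libraries were stranded, reads were trimmed with Trimmomatic, mapped to the S288c genome R64-1-1 with bwa-mem and counted with HT-Seq. The strand setting and the handling of reads with several hits are not given in the sources used here. Counts were matched to RefSeq's R64 annotation by locus tag (6025 of 6717 identifiers, all 107 members), and unmatched identifiers held 0.117% of counts. Sequences are from RefSeq's R64 genome.

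CPM for the rule used the column totals of all 35 libraries. Tests used edgeR 4.0.16 in R 4.3.3 (quasi-likelihood, TMM, filter on low counts, strain-by-time groups plus the replicate number as a block) on 34 libraries, with YPS128 replicate 3 at T3h left out because the study's table of salt responses has no column for it (the sources used here do not say whether the study's own fit held it), and adjusted p-values over 5997 genes with a threshold of 0.05. The SE of a log2 fold change was its absolute value divided by the square root of the F statistic of the quasi-likelihood test. DESeq2 1.42.0, an alternative, used the same model formula. The pairing comes from the study's methods, in which strains were grown in parallel per replicate. Deviations from the group means were compared between same-numbered libraries of different strains. They correlated over 0.1 in 18 of 18 pairs at T0, 7 of 15 at T30 and 18 of 18 at T3h. Between times of the same culture, 5 of 11 pairs were over 0.1 for T0 and T30, 10 of 12 for T0 and T3h, and 5 of 11 for T30 and T3h. In BY4743 the T0 and T30 values were 0.15, -0.42 and -0.49, so pairing was not seen throughout at T30. Counts without the block are in the closing section. Tested on simulated data for BY4743 at T30 (5986 genes, 200 changed by 1.5 log2 units), the fit recovered 193, with 3.5% of 200 calls false. The simulation gave every gene the same spread, had no replicate effect and held as many rises as falls. It therefore cannot test spread that differs between genes, the block, or the scaling when many genes change. Totals of 3629637 to 5866906 counts limit precision. The spread behind the p-values was estimated over all 34 libraries, wild strains included, and not from the 3 BY4743 cultures alone. With the BY4743 libraries alone, 64 members were higher and 4 lower at T30.

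The members, gene lists, motifs and role groups were chosen with earlier results of these data known. The text names the 12 members with the largest wild-strain change at 3 h, the 8 highest and 8 lowest in BY4743 at T30, the 5 highest and 5 lowest at T3h, genes next to the limits, members of the gene lists, adjacent members and those that vary most between wild strains. A member that this rule took is counted but its own values are not reported here. Members named by role alone were chosen after their values were seen. The alternatives tried are in the closing section.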

Additional observations from a re-analysis of the deposited data

Results flagged for a closer look

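On CPM by library totals, 7 members moved one way in every BY4743 culture and the other way in every wild culture. The difference between strains was not tested because the rule used the wild values. TMM factors at T30 were 0.642 for YPS128 replicate 1 and 1.26 for BY4743 replicate 1, and the pattern was not recounted on that scale. With TMM, BAP2 had no call at T30 in BY4743 (log2 fold change 0.28, edgeR adjusted p = 0.22). The share of all tested genes with such a pattern was not counted, so it cannot be called particular to the members. The limit at T30 also favoured genes that fell in the wild strains. At T30, the wild cultures were all lower than at T0 and the BY4743 cultures all higher for 6 of them. Values are means over cultures of the change in log2(CPM + 1). BAP2 averaged -0.60 in the wild cultures and 0.53 in BY4743. ATG1 averaged -0.43 in the wild cultures and 1.76 in BY4743, and SKN1 averaged -0.44 and 1.17 in the same order. SDC25 averaged -0.55 in the wild cultures and 0.75 in BY4743. YPK2, a kinase downstream of TORC2, averaged -0.80 in the wild cultures and 1.33 in BY4743. YTP1 averaged -0.46 in the wild cultures and 0.81 in BY4743. At T3h FET4 averaged 2.13 in the wild cultures and -1.31 in BY4743, the only member with this pattern at that time.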

How the results depend on the processing

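Within BY4743, the count of members higher at T30, at T3h and at T3h over T30 stayed within 1.5 times its value under every alternative, and without 1 BY4743 replicate it ran from 64 to 66, from 93 to 98 and from 49 to 54. Without the replicate block, 66 members were higher and 7 lower at T30, 97 higher and 1 lower at T3h, and 51 higher and 10 lower between the times. The rule moved more. It gave 42 genes on TMM-scaled CPM, 326 or 39 with a 3 h limit of 1 or 2, 25 or 207 with a 30 min limit of 0 or 1, 60 with at least 50 CPM, and 92 to 118 without 1 replicate. With library totals, 2 members and 1157 genes were lower at T30, and the members' median log2 fold change was 1.13 at T30 and 1.53 at T3h. With the BY4743 libraries alone, 4 members were lower at T30, and 901 genes were higher and 1013 lower at T3h over T30. Without 1 BY4743 replicate, members lower at T30 ran from 1 to 11, the T3h median from 1.30 to 1.44, and at T3h over T30 members lower from 6 to 11 and genes lower from 986 to 1542.

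The following log2 fold changes turned sign, each near 0 or uncalled in the setting named, and the cause was not tested. With library totals, T30 over T0 was 0.15 for AAD4, 0.0228 for ARG5,6, 0.22 for PDR11 and 0.26 for ECM38, and T3h over T30 was -0.16 for AZF1, -0.0628 for FMP27, -0.11 for GAL1, -0.00500 for RIM4 and -0.0865 for SIR1. With at least 10 counts in every library of a group, T30 over T0 was 0.00334 for PDR11 and 0.00952 for ECM38, and T3h over T30 was -0.0379 for AZF1 and -0.0372 for GAL1. With all 35 libraries T3h over T30 was -0.0149 for AZF1 and -0.0177 for GAL1, and with BY4743 alone -0.00939 for AZF1 and -0.0302 for GAL1. GTT1 at T30 was -0.0187 with upper quartile scaling, -0.0219 with no replicate block and -0.00121 with a block per culture. Without 1 BY4743 replicate, T30 over T0 ran from -0.0280 to 0.32 for YLR152C, -0.50 to 0.18 for AAD4, -0.14 to 0.0532 for PDR11, -0.32 to 0.34 for GTT1 and -0.32 to 0.24 for ECM38. T3h over T0 ran from -0.0153 to 0.21 for ADH6 and -0.32 to 0.0282 for AAD4. T3h over T30 ran from -3.28 to 0.57 for MTL1, -0.44 to 0.17 for AAD4, -0.23 to 0.25 for AZF1, -0.78 to 0.0508 for UBC8, -0.48 to 0.31 for ATG8, -0.0858 to 0.19 for GAL1, -0.24 to 0.18 for ADY3, -0.0713 to 1.69 for DAN4 and -0.18 to 0.27 for SIR1. Over all members that the naming rule took and all settings 2167 values kept direction and side of the threshold, 61 lost and 34 gained a call, and 39 turned sign. At this depth 3 counts equal up to 0.827 CPM, which limits STR3, BNA1, SDH6 and COS4 where they were low.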
